A study of Mus musculus with 21 samples.

Results

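Tbx2, Tbx3, Tbx4, Tbx5, Tbx15, Tbx18, Pitx1 and Shox2 are 8 mouse genes for transcription factors that lay out the limbs and other mesodermal organs of the embryo. They were chosen by name and role, with no threshold on any value, at a time when results from these same libraries were known, so every count over them is a description and supports nothing. The deposited table lists 26852 genes, and all 8 members are in it. All 8 were also among the 12976 genes that passed the filter on low values, a mean over the libraries of at least 10 normalized counts (3.32 on the log2 scale), and were tested.

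T-box factors share a DNA-binding domain, and several of them mark where a cell lies along the body and the limb. Tbx5 starts the outgrowth of the forelimb and Tbx4 that of the hindlimb, while the homeodomain factor Pitx1 acts upstream of Tbx4 and gives the hindlimb its shape. Tbx2 and Tbx3 are repressors that hold back genes for cell-cycle inhibitors, Tbx15 and Tbx18 are related repressors of skeletal and vascular mesenchyme, and the homeodomain factor Shox2 drives growth of the upper limb bones; skeletal cells of the adult keep part of this regional expression.

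The libraries are RNA sequencing of Nes-low cells, sorted for low GFP from the bone marrow of Nestin-GFP NSG mice, a strain without T, B and natural killer cells. Blood cells had been depleted by CD45 before the sort, and the sort stained for CD45, the red cell marker Ter119 and the endothelial marker CD31. Mice aged 8 to 12 weeks at transplantation received, without conditioning, 1 of 2 human acute myeloid leukemia cell lines, HL60 or ML1, that release a cell-penetrating mCherry protein which nearby cells take up. The ctrl group is 3 libraries from mice of the same strain with no graft. At an early point of the leukemia the Nes-low cells were sorted into those with the mCherry label (early ch+) and those without it (early ch-), and at a late point they were taken with no such split (late). Each of these stages has 3 libraries from HL60 and 3 from ML1, which gives 21 libraries in 7 groups. The stage of the 3 ML1 late libraries rests on their titles and time point, because their treatment field says unengrafted; comparisons within HL60 are given apart and do not use them for a group mean. The study gives the age at collection as a range over its mice and not by library. The labels do not state whether a library holds 1 mouse or several. Early ch- cells were taken from marrow that also gave early ch+ cells, so these groups can share mice. The labels do not tie their libraries to each other, and the tests treat all libraries as independent.

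Values are the regularized log2 values of normalized counts that the authors deposited. Linear levels, given here as normalized counts, are these regularized values taken back from log2, not the counts themselves. The read depth of each library is unknown, since the study gives only a typical yield. Summed on the linear scale, the libraries held normalized counts of 11.9 to 14.2 (in units of 1e6) in ctrl, 12.3 to 14.7 in early ch-, 11.2 to 12.6 in early ch+ and 7.26 to 9.02 in late. The late libraries were thus below all others in this sum. Markers of the sorted cells were present, with a mean over the 21 libraries of 15.84 for Cxcl12, 11.70 for Pdgfrb, 11.66 for Pdgfra and 7.32 for Nes. The endothelial gene Pecam1 had a mean of 5.41 and the blood cell gene Ptprc 3.63. In bulk libraries such as these, fewer cells of a type and less RNA per cell cannot be told apart.

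Per kilobase of exon, the scale on which levels of different genes can be set side by side, Shox2 was the most abundant member in ctrl with a mean of 213 normalized counts (SD 44.4, n = 3). Tbx15 followed with 121 (SD 57.7), overlapping Shox2, and Tbx2 with 111 (SD 20.3), overlapping Tbx15. A lower tier held Tbx3 at 23.0 (SD 11.7), Pitx1 at 23.0 (SD 9.84) and Tbx18 at 18.6 (SD 9.82), which did not differ beyond their spread. The factors that start limb outgrowth were the scarcest, Tbx5 at 4.95 (SD 1.66) and Tbx4 at 2.68 (SD 0.741) normalized counts per kilobase. In the late libraries the mean for Tbx2 was 33.4 (SD 21.5, n = 6), below Tbx15 at 171 (SD 21.9), now the highest, and Shox2 at 147 (SD 20.0). By line it was 49.3 (SD 19.7) with HL60, where Pitx1 was at 24.9 (SD 6.93), and 17.5 (SD 2.95) with ML1, where Pitx1 was at 30.7 (SD 2.90).

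**Figure D1:**
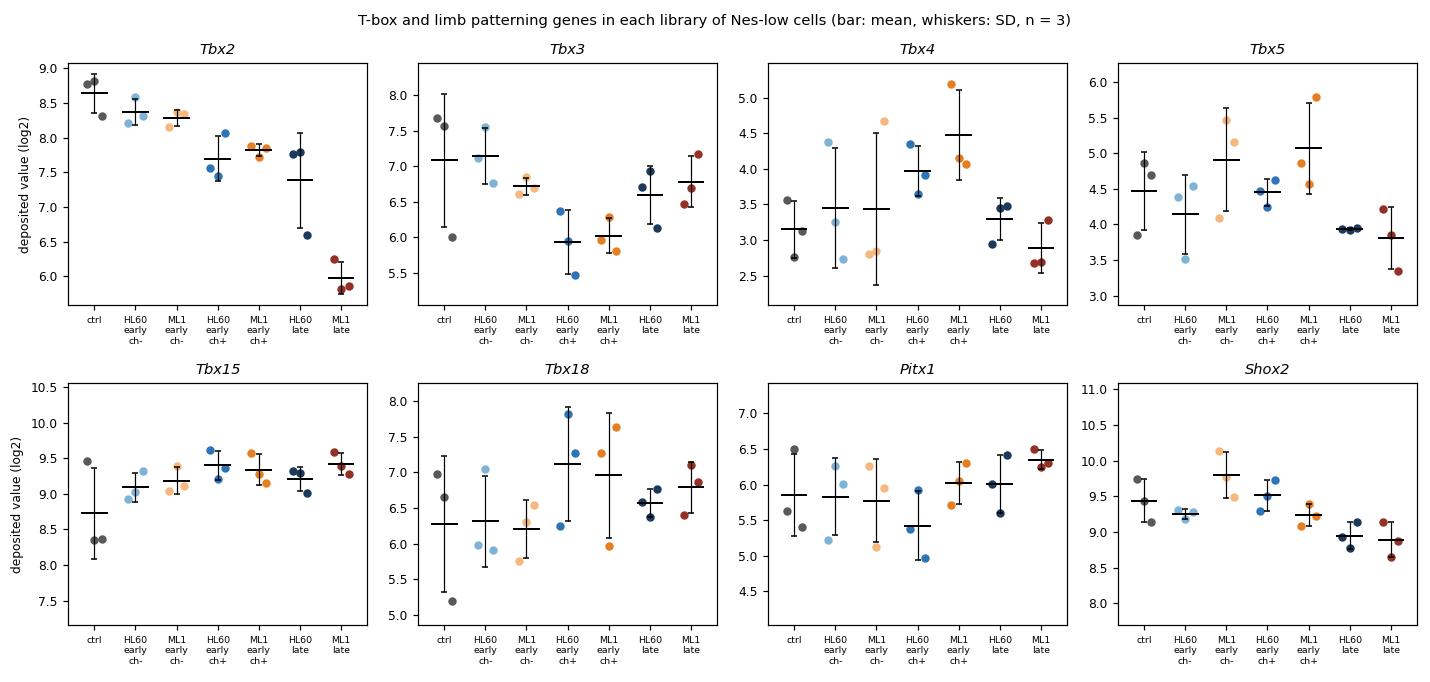
Deposited log2 values of the 8 genes in each of the 21 libraries, in 7 groups along the x axis (1 point per library, bar at the mean, whiskers 1 SD, n = 3). The ML1 late libraries stand lowest for Tbx2, between 5.82 and 6.24, and the early ch+ libraries of both lines lie below the early ch- libraries for Tbx3.

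Among the repressors, Tbx2 showed the largest difference from ctrl. Its log2 values in ctrl were 8.78, 8.82 and 8.32 (replicates 373, 374 and 375; mean 8.64, SD 0.28). In early ch- it read 8.22, 8.59 and 8.31 with HL60 (mean 8.37, SD 0.19) and 8.16, 8.37 and 8.35 with ML1 (mean 8.29, SD 0.12). The unlabelled cells overlapped ctrl in both lines, because the lowest ctrl library lay inside their range. Early ch+ libraries read 7.57, 7.45 and 8.06 with HL60 (mean 7.69, SD 0.33) and 7.88, 7.72 and 7.85 with ML1 (mean 7.82, SD 0.08). Late libraries read 7.76, 7.80 and 6.59 with HL60 (mean 7.38, SD 0.69) and 6.24, 5.82 and 5.86 with ML1 (mean 5.97, SD 0.23). All 6 late and all 6 early ch+ libraries were below all 3 ctrl libraries, every early ch+ library was below every early ch- library, and 1 HL60 late library, replicate 399, lay well under the other 2 of its group.

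With both lines together, Tbx2 fell by 1.96 (SE 0.32, log2) in late against ctrl (limma, adjusted p = 4.64e-05; lower in 6 of 6 libraries). In HL60 alone the fall was −1.25 (SE 0.28, adjusted p = 0.00226, limma) and in ML1 alone −2.67 (SE 0.28, adjusted p = 1.27e-08, limma), with all 3 libraries of each line below ctrl. These 3 calls passed in every fit with 1 library left out, and under rescaling of the libraries they stood at −1.27, −0.68 and −1.85, still called. The late comparison of the lines gave a Tbx2 level 1.41 higher with HL60 than with ML1 (95% interval 0.84 to 1.98; limma, adjusted p = 0.00147), with all 3 HL60 libraries above all 3 ML1 libraries. Early on, the lines differed in Tbx2 by 0.08 in early ch- and −0.13 in early ch+, and neither difference passed the test (limma, adjusted p = 0.972 and 0.95).

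For early ch+ against ctrl the pooled difference of Tbx2 was −0.88 (SE 0.32) with an adjusted p of 0.14 in limma, short of the 0.1 used for a call, although all 6 libraries were below ctrl. The fit by line, in which the SE of this gene was smaller, did call it, at −0.95 for HL60 (SE 0.28, adjusted p = 0.0534, limma) and −0.82 for ML1 (SE 0.28, adjusted p = 0.0958, limma), with all 3 libraries of each line below ctrl. The HL60 call was lost without ctrl replicate 373 (−0.88) or 374 (−0.85) and without early ch+ replicate 523 (−0.88) or 524 (−0.82), with no filter, under rescaling and with array weights. The ML1 call was lost in 14 of the 21 fits that leave out 1 library, where the value ran from −0.85 to −0.73, and in 7 of the other 8 settings. The pooled value stayed at −0.88 and passed without HL60 late replicate 397 or 398, with only the groups compared (adjusted p = 0.0251) and as the mean of both lines from 7 groups (adjusted p = 0.0239). Against early ch-, Tbx2 in early ch+ stood at −0.57 (SE 0.26; limma, adjusted p = 0.284), with no overlap between the groups. That value did pass with only the groups compared (adjusted p = 0.049) and as the mean of both lines from 7 groups (adjusted p = 0.0904).

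Late against early ch+ gave −1.08 for Tbx2 (SE 0.26; limma, adjusted p = 0.00395), and the late libraries were lower except HL60 replicates 397 and 398, which fell inside the early ch+ range. Under rescaling it was −0.46 and not called (adjusted p = 0.105). The values by line were further apart. With ML1 the value was −1.85 (SE 0.28; limma, adjusted p = 1.03e-05), all 3 late libraries below all 3 early ch+ libraries, and under rescaling it was −1.08, still called. With HL60 it was −0.31 (SE 0.28; limma, adjusted p = 0.648), and the ranges overlapped. That value rests on replicate 399, at 6.59, since 397 (7.76) and 398 (7.80) lay above the HL60 early ch+ mean of 7.69.

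Osteoblast marker genes moved with Tbx2. Of 11 tested, 9 fell and 1 rose in late against ctrl (median −1.93, against 0.02 for all genes tested), and 10 were higher and 0 lower with HL60 than with ML1 in late (limma; 11 had an unadjusted p under 0.05). Their most abundant gene was Col1a1, with a mean of 19.27, and none was near 0: the scarcest, Ifitm5, had a mean of 9.09. Their summed level in normalized counts was 1256580, 1389945 and 1710984 in ctrl. It was 506302, 528401 and 404472 in HL60 late and 135151, 84246 and 93379 in ML1 late. Within each late group the 3 libraries ranked alike for Tbx2 and for this sum, while ctrl replicate 375, lowest for Tbx2 in ctrl, had the highest sum there. In early ch- the sum ran from 1036904 to 1300268 with HL60 and from 1210041 to 1456897 with ML1, and in early ch+ from 941531 to 1070925 and from 948556 to 1106238. Of all tested genes 10.2% were higher and 11.4% lower in late against ctrl, and 4.09% were called between the lines in late. Chondrocyte marker sums, given below beside Shox2, also fell in the group order of the Tbx2 means. Their medians were 162051 in ctrl, 115553 in early ch-, 57897 in early ch+, 29733 in HL60 late and 6311 in ML1 late. The part of osteoblast and chondrocyte content in the Tbx2 values was not tested.

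**Figure D2:**
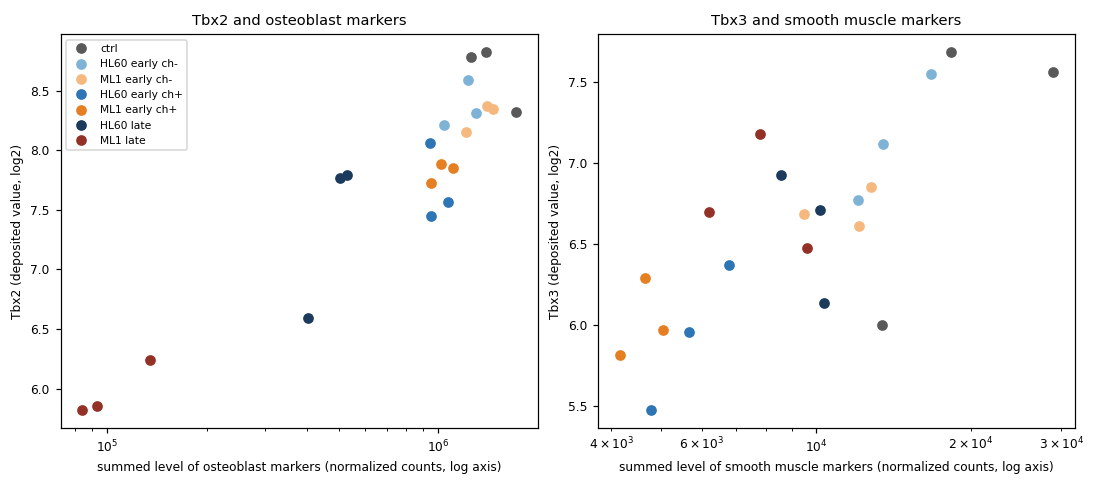
Left, log2 value of Tbx2 against the summed level of 11 osteoblast markers; right, log2 value of Tbx3 against the summed level of 11 smooth muscle markers (x axes in normalized counts on a log axis, 1 point per library, 21 libraries). The ML1 late libraries, with sums from 84246 to 135151, lie at the low end of both axes on the left, and the early ch+ libraries, with sums from 4154 to 6763, gather at the lower left on the right.

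Tbx3, the closest relative of Tbx2 among the members, followed another course. Its ctrl values were 7.68, 7.56 and 5.998 (mean 7.08, SD 0.94), so ctrl replicate 375 stood far below the other 2. Early ch- read 7.12, 7.55 and 6.77 with HL60 (mean 7.15, SD 0.39) and 6.61, 6.85 and 6.69 with ML1 (mean 6.72, SD 0.12). Early ch+ read 6.37, 5.96 and 5.48 with HL60 (mean 5.94, SD 0.45) and 5.97, 6.29 and 5.81 with ML1 (mean 6.02, SD 0.24). Every labelled library was below every unlabelled library of the early stage. The ctrl range reached from inside the labelled range to above every unlabelled library, and 4 labelled libraries lay below it. Late read 6.71, 6.93 and 6.14 with HL60 (mean 6.59, SD 0.41) and 6.48, 6.70 and 7.18 with ML1 (mean 6.78, SD 0.36). Both late groups overlapped early ch-, HL60 late also overlapped early ch+, and all 3 ML1 late libraries lay above every early ch+ library.

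Tbx3 fell by 0.95 (SE 0.27, log2) in early ch+ against early ch- (limma, adjusted p = 0.0313; lower in 6 of 6 libraries). The call was lost without HL60 early ch- replicate 528 (−0.83) and under rescaling of the libraries. By line the values were −1.21 for HL60 (SE 0.38; limma, adjusted p = 0.0989) and −0.69 for ML1 (SE 0.38; limma, adjusted p = 0.443), each with no overlap. The HL60 call was lost in 15 of the fits that leave out 1 library (−1.22 to −0.98) and in 5 of the other 8 settings, so it sits at the threshold. Against ctrl, Tbx3 in early ch+ was at −1.10 (SE 0.33; limma, adjusted p = 0.0522), with 4 of 6 libraries below the lowest ctrl library. That value was −0.80 without ctrl replicate 373 and −0.86 without 374, no longer called, and −1.64 without 375; it was also not called with no filter or with only the groups compared.

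In the fits by line Tbx3 stood at −1.14 for HL60 (limma, adjusted p = 0.106) and −1.06 for ML1 (limma, adjusted p = 0.132) in early ch+ against ctrl, neither called. Without ctrl 375 they were −1.68 (adjusted p = 0.00687) and −1.60 (adjusted p = 0.00836), both called, and HL60 also passed without early ch+ 523 (−1.36), with the filter at 5, with quantile normalization and with array weights. Late against early ch+ gave a rise of Tbx3 by 0.71 (SE 0.27; limma, adjusted p = 0.0733), while late against ctrl stood at −0.39 (SE 0.33; limma, adjusted p = 0.485). This last value was −0.09 without ctrl 373, −0.15 without 374 and −0.93, called (adjusted p = 0.0519), without 375, where HL60 also passed at −1.03. The rise was lost with no filter and in 8 fits that leave out 1 library, with values from 0.61 to 0.70: without ML1 late 582 or 583, HL60 late 397 or 398, HL60 early ch+ 524 or 525, or ML1 early ch+ 538 or 541. Under rescaling it was 1.32.

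Smooth muscle genes differed in early ch+ against ctrl and in late against early ch+, where Tbx3 was also called. Of 11 tested, 8 fell and 0 rose in early ch+ against ctrl (limma; median −1.55, 9 with an unadjusted p under 0.05), and 7 rose and 0 fell in late against early ch+ (limma; median 0.78, 7 with an unadjusted p under 0.05). Their summed level was 18282, 28934 and 13444 in ctrl, where the lowest library, replicate 375, was also the lowest for Tbx3. It was 13507, 16751 and 12043 in HL60 early ch- and 12112, 12765 and 9497 in ML1 early ch-. In early ch+ it was 6763, 5675 and 4768 with HL60 and 5047, 4647 and 4154 with ML1. Late libraries held 10192, 8568 and 10389 with HL60 and 9617, 6195 and 7797 with ML1, above every early ch+ library except HL60 replicate 523, which exceeded ML1 late replicate 582. All of these late sums were below every ctrl sum, whereas Tbx3 in late overlapped ctrl and was not called against it. Within HL60 late the libraries ranked in reverse order for Tbx3 and for this sum, and ML1 late 581 had the lowest Tbx3 and the highest sum of its group. The most abundant of these genes was Mylk with a mean of 11.33, and the scarcest Actg2 with 4.002. Pericyte genes (7 tested, Rgs5 highest with a mean of 12.54) had 3 lower and 0 higher in early ch+ against ctrl (limma; 4 with an unadjusted p under 0.05) and 5 higher and 1 lower in late against early ch+, with sums of 14037 to 17230 in ctrl, 10078 to 11186 in early ch+ and 18713 to 25676 in late. Schwann cell genes (6 tested, S100b highest with a mean of 7.62) had 4 lower and 0 higher in early ch+ against ctrl (limma; 4 with an unadjusted p under 0.05) and 4 lower and 1 higher in early ch+ against early ch-, with sums of 455 to 654 in ctrl, 354 to 604 in early ch-, 327 to 629 in early ch+ and 1057 to 2054 in late. Of all tested genes 3.41% were higher and 2.75% lower in early ch+ against ctrl. These shares were 8.79% and 10.9% in late against early ch+, and 3.58% and 2.68% in early ch+ against early ch-. The part of smooth muscle, pericyte and Schwann cells in the Tbx3 values was not tested.

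Tbx15 varied little outside ctrl. Its ctrl values were 9.46, 8.36 and 8.36 (mean 8.73, SD 0.63), with replicate 373 more than 1 log2 unit above the other 2. Early ch- read 8.93, 9.02 and 9.32 with HL60 (mean 9.09, SD 0.20) and 9.04, 9.40 and 9.11 with ML1 (mean 9.19, SD 0.19). Early ch+ read 9.62, 9.21 and 9.37 with HL60 (mean 9.40, SD 0.20) and 9.58, 9.29 and 9.15 with ML1 (mean 9.34, SD 0.22). Late read 9.32, 9.29 and 9.02 with HL60 (mean 9.21, SD 0.17) and 9.59, 9.39 and 9.28 with ML1 (mean 9.42, SD 0.16). All 18 libraries from engrafted mice were above ctrl replicates 374 and 375, and replicate 373 lay within their range.

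Tbx15 rose by 0.64 (SE 0.19) in early ch+ against ctrl (limma, adjusted p = 0.0568) and by 0.59 (SE 0.19) in late against ctrl (limma, adjusted p = 0.0345), with 6 of 6 libraries above 2 of the 3 ctrl libraries in each. Both values depend on the ctrl libraries. Without replicate 373 they were 1.01 and 0.96; without 374 they were 0.46 and 0.40, and without 375 they were 0.46 and 0.41, all 4 no longer called. The early ch+ call was also lost without HL60 early ch+ replicate 523 (0.59) or ML1 early ch+ replicate 538 (0.60), with no filter, without the mean-variance trend and with only the groups compared. In early ch- against ctrl Tbx15 stood at 0.41 (SE 0.19; limma, adjusted p = 0.395), and at 0.78, called, without ctrl replicate 373. Without 374 or 375 that value was 0.23.

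By line, late against ctrl gave 0.70 for Tbx15 with ML1 (SE 0.22; limma, adjusted p = 0.0286) and 0.48 with HL60 (SE 0.22; limma, adjusted p = 0.203). The ML1 call was lost without ctrl 374 (0.51), ctrl 375 (0.52) or ML1 late 581 (0.61) and it was 1.06 without ctrl 373, while HL60 passed at 0.85 without ctrl 373 and at 1.05 under rescaling, and was 0.30 without ctrl 374 or 375. Early ch+ against ctrl gave Tbx15 values of 0.67 with HL60 and 0.61 with ML1, neither called (limma, adjusted p = 0.103 and 0.135). Without ctrl 373 they were 1.04 (adjusted p = 0.00302) and 0.98 (adjusted p = 0.00351), both called, and HL60 also passed with the filter at 5, with quantile normalization (0.71) and under rescaling (0.77). No difference between the lines in Tbx15 passed at any stage.

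CAR cells are marrow stromal cells rich in Cxcl12, and their markers differed in the same comparisons as Tbx15. Of 10 tested, 9 rose and 0 fell in early ch+ against ctrl (limma; median 0.85, 9 with an unadjusted p under 0.05), and 9 rose and 0 fell in late against ctrl (limma; median 1.03, 9 with an unadjusted p under 0.05). Their summed level in ctrl was 71267, 44529 and 52222, highest in replicate 373, the library with the highest Tbx15 of its group, while within ML1 late the libraries ranked in reverse order for Tbx15 and for the sum. It ran from 47612 to 93646 in early ch-, from 79716 to 119267 in early ch+ and from 110268 to 138581 in late. Cxcl12 was the most abundant with a mean of 15.84 and Il7 the scarcest with 8.18. Of all tested genes 3.41% were higher and 2.75% lower in early ch+ against ctrl, and 10.2% and 11.4% in late against ctrl. The part of CAR cell content in the Tbx15 values was not tested.

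Tbx18, which marks mural cells of many vessels, varied widely between the libraries of ctrl, early ch- and early ch+, and less within late. Its values ran from 5.19 to 6.98 in ctrl, from 5.75 to 7.05 in early ch-, from 5.96 to 7.82 in early ch+ and from 6.38 to 7.10 in late. Every group overlapped every other. Early ch+ against early ch- stood at 0.78 (95% interval 0.12 to 1.43; limma, adjusted p = 0.209), and at 0.99, called, without ML1 early ch+ replicate 539. Late against ctrl stood at 0.40 for Tbx18 (95% interval −0.40 to 1.21; limma, adjusted p = 0.567). That value was 0.76 without ctrl 373, 0.59 without 374 and, turned in direction, −0.14 without 375. Under rescaling, which raised the median of all genes to 0.71, it was 1.097, called (adjusted p = 0.0268).

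Shox2 was abundant in every library. Its ctrl values were 9.74, 9.44 and 9.14 (mean 9.44, SD 0.30). Early ch- read 9.31, 9.18 and 9.29 with HL60 (mean 9.26, SD 0.07) and 10.13, 9.77 and 9.50 with ML1 (mean 9.80, SD 0.32). Early ch+ read 9.30, 9.51 and 9.74 with HL60 (mean 9.51, SD 0.22) and 9.09, 9.40 and 9.22 with ML1 (mean 9.24, SD 0.16). In unlabelled cells the lines did not overlap, with ML1 higher, and in labelled cells they overlapped. Late read 8.93, 8.77 and 9.14 with HL60 (mean 8.95, SD 0.19) and 9.14, 8.65 and 8.88 with ML1 (mean 8.89, SD 0.24). All 6 late libraries were below all 6 early ch- libraries, and only the highest late values overlapped the lowest ctrl and early ch+ values.

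Shox2 fell by 0.52 (SE 0.19, log2) in late against ctrl (limma, adjusted p = 0.0625), with 4 of 6 libraries below the lowest ctrl library. The call was lost without ctrl replicate 373 (−0.37) or 374 (−0.52) and without ML1 late replicate 582 (−0.47), with no filter, with quantile normalization and without the mean-variance trend. By line the values were −0.49 for HL60 (SE 0.19; limma, adjusted p = 0.12) and −0.55 for ML1 (SE 0.19; limma, adjusted p = 0.0497). The ML1 value lost its call without ctrl 373 (−0.40), ML1 late 582 (−0.43) or ML1 late 583 (−0.54), and with quantile normalization; HL60 passed without ctrl 375 (−0.64) or ML1 early ch- 543 (−0.49). Late against early ch+ gave −0.45 for Shox2 (SE 0.16; limma, adjusted p = 0.0451), lost without ML1 late 582 (−0.40) or HL60 early ch+ 525 (−0.38) and with no filter. Under rescaling this value turned to 0.16. Late against ctrl turned to 0.17 with both lines, 0.08 with HL60 and 0.27 with ML1.

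Within HL60, Shox2 in late stood at −0.56 against early ch+ (SE 0.19; limma, adjusted p = 0.0797), with no overlap. That call was lost without HL60 late 397 (−0.56) or 398 (−0.47) and without HL60 early ch+ 524 (−0.57) or 525 (−0.45), with no filter, without the trend and, at −0.09 (adjusted p = 0.775), under rescaling. Within ML1, Shox2 in early ch+ was below early ch- in 3 of 3 libraries at −0.56 (SE 0.19; limma, adjusted p = 0.134), and at −0.72, called, without ML1 early ch- 546. HL60 against ML1 in early ch- gave −0.54 (95% interval −0.94 to −0.14; limma, adjusted p = 0.531), not called.

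Rescaling each library to the same summed level shifts the values of all genes in a comparison by 1 amount, so a turn in direction under it follows from that shift. The median of all tested genes in late against ctrl moved from 0.02 to 0.71. Shox2 turned from lower to higher, at 0.17, and lay below the median under both scalings, while Tbx2 stayed lower at −1.27 and Tbx15 higher at 1.28. In late against early ch+ the median moved from 0.02 to 0.63, and Shox2 turned to 0.16, Tbx2 stood at −0.46, Tbx4 at −0.51 and Tbx5 at −0.27, none of them called, while Tbx3 stood at 1.32, Pitx1 at 1.07 and Tbx15, turned from −0.05, at 0.56, all 3 called. In early ch+ against early ch- the median moved from −0.02 to 0.13 and Tbx3 stood at −0.80. By line in late against ctrl Shox2 turned to 0.08 with HL60 and 0.27 with ML1, and with ML1 in late against early ch+ it turned from −0.35 to 0.41, called (adjusted p = 0.0993).

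Chondrocyte and osteoblast genes were lower in the same late libraries as Shox2, a factor of cartilage growth. Of 14 chondrocyte markers tested, 14 fell and 0 rose in late against ctrl (limma; median −3.58, 14 with an unadjusted p under 0.05), but 11 had already fallen and 0 had risen in early ch+ against ctrl (limma; median −2.99, 11 with an unadjusted p under 0.05), where Shox2 stood at −0.06 (SE 0.19; limma, adjusted p = 0.907). Their summed level was 227089, 129091 and 162051 in ctrl, 45976 to 74904 in early ch+, 22763 to 32290 in HL60 late and 5625 to 7992 in ML1 late. Early ch- held 88713 to 143535. Col11a1 was the most abundant with a mean of 14.30, and Matn1, at 2.83, was the 1 marker not tested. Of all tested genes 10.2% were higher and 11.4% lower in late against ctrl, and 3.41% and 2.75% in early ch+ against ctrl. The part of chondrocytes and osteoblasts in the Shox2 values was not tested.

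Tbx4, the hindlimb factor, was the scarcest member, near the filter. Its mean over the 15 libraries outside early ch+ was 3.24, under the filter of 3.32, so it was tested only because of the group in which it was highest. Its ctrl values were 3.56, 2.76 and 3.13 (mean 3.15, SD 0.40). Early ch- read 4.38, 3.25 and 2.73 with HL60 (mean 3.46, SD 0.84) and 2.81, 2.84 and 4.67 with ML1 (mean 3.44, SD 1.07). Early ch+ read 4.35, 3.65 and 3.91 with HL60 (mean 3.97, SD 0.35) and 5.20, 4.15 and 4.06 with ML1 (mean 4.47, SD 0.63). All 6 labelled libraries were above all 3 ctrl libraries, while the unlabelled ones held 1 high library in each line. Late read 2.95, 3.45 and 3.48 with HL60 (mean 3.29, SD 0.30) and 2.68, 2.68 and 3.29 with ML1 (mean 2.88, SD 0.35), below every early ch+ library and level with ctrl.

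Tbx4 stood 1.13 lower (SE 0.33, log2) in late than in early ch+ (limma, adjusted p = 0.0146, lower in 6 of 6 libraries). Since only early ch+ brought Tbx4 past the filter, this call is given as description. It passed with each library left out. With no filter it also passed (adjusted p = 0.0495), but there not without ML1 late 581, ML1 late 582 or ML1 early ch+ 538. Under rescaling it was −0.51 and not called (adjusted p = 0.172). With ML1 the fall was −1.58 (SE 0.46; limma, adjusted p = 0.0182), lost without ML1 early ch+ replicate 538 (−1.22), and with HL60 it stood at −0.68 (SE 0.46; limma, adjusted p = 0.497), each with no overlap. Under rescaling the ML1 value was −0.82 and not called. Early ch+ against ctrl stood at 1.07 (SE 0.40; limma, adjusted p = 0.147), higher in 6 of 6 libraries, and at 1.32 with ML1 (SE 0.46; limma, adjusted p = 0.112), neither called. Against early ch-, Tbx4 in early ch+ stood at 0.77 (SE 0.33; limma, adjusted p = 0.227), not called. At a mean filter of 5 on the log2 scale Tbx4 and Tbx5 are not tested.

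Tbx5, the forelimb counterpart, had ctrl values of 3.85, 4.87 and 4.69 (mean 4.47, SD 0.55). Early ch- read 4.38, 3.51 and 4.54 with HL60 (mean 4.15, SD 0.56) and 4.09, 5.47 and 5.16 with ML1 (mean 4.91, SD 0.72). Early ch+ read 4.48, 4.25 and 4.63 with HL60 (mean 4.45, SD 0.19) and 4.86, 4.57 and 5.78 with ML1 (mean 5.07, SD 0.64). These ranges overlapped, with the highest values in ML1 libraries. Late read 3.94, 3.93 and 3.96 with HL60 (mean 3.94, SD 0.01) and 4.22, 3.85 and 3.35 with ML1 (mean 3.81, SD 0.44). All 6 late libraries lay below all 6 early ch+ libraries.

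Tbx5 fell by 0.89 (SE 0.31, log2) in late against early ch+ (limma, adjusted p = 0.0547; lower in 6 of 6 libraries). The call was lost without ML1 late replicate 583 (−0.78) or ML1 early ch+ replicate 541 (−0.68), with no filter and, at −0.27 (adjusted p = 0.448), under rescaling. With ML1 the fall was −1.26 (SE 0.43; limma, adjusted p = 0.048), lost without ML1 late 582 (−1.28) or 583 (−1.03) or ML1 early ch+ 541 (−0.90) and, at −0.50, under rescaling. With HL60 Tbx5 stood at −0.51 (SE 0.43; limma, adjusted p = 0.614), with no overlap. Late against ctrl stood at −0.59 (SE 0.39; limma, adjusted p = 0.345), and at −0.90 without ctrl 373 and −0.39 without 374.

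Genes of muscle and blood moved with Tbx4 and Tbx5 between early ch+ and late. All 6 skeletal muscle markers tested fell and 0 rose (limma; median −2.72, 6 with an unadjusted p under 0.05), as did 6 of 7 blood cell markers (0 rose; median −3.11, 6 with an unadjusted p under 0.05) and all 7 red cell markers (0 rose; median −5.71, 7 with an unadjusted p under 0.05). Their most abundant genes were Ttn (mean 6.57), Lyz2 (mean 8.26) and Hbb-bs (mean 9.13). The summed red cell level ran from 330 to 697 in ctrl, from 5094 to 10242 in early ch-, from 4357 to 12924 in early ch+ and from 88.2 to 124 in late. The skeletal muscle sum ran from 91.3 to 182 in ctrl, from 243 to 716 in early ch-, from 277 to 890 in early ch+ and from 56.1 to 87.5 in late, and the blood cell sum from 257 to 464, from 1300 to 2577, from 970 to 2239 and from 128 to 255. Early ch- shared these high sums, and its Tbx4 and Tbx5 ranges overlapped late. Fibroblast sums and joint and tendon sums, given below, were also lower in every late library than in every early ch+ library. For both, every early ch- sum was below every early ch+ sum. Of all tested genes 8.79% were higher and 10.9% lower in late against early ch+. The part of muscle, blood, fibroblast, and joint and tendon cells in the Tbx4 and Tbx5 values was not tested.

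Pitx1, which switches on Tbx4 in the hindlimb bud, was called in no comparison at the deposited scaling (limma). Its values ran from 5.41 to 6.51 in ctrl, from 5.12 to 6.26 in early ch-, from 4.97 to 6.30 in early ch+ and from 5.60 to 6.50 in late. These ranges all overlapped. By line, the HL60 early ch+ libraries, from 4.97 to 5.93, lay below the ML1 late libraries, from 6.24 to 6.50, which were the tightest. Late against early ch+ stood at 0.46 for Pitx1 (95% interval −0.13 to 1.04; limma, adjusted p = 0.341) and late against ctrl at 0.33 (95% interval −0.39 to 1.04; limma, adjusted p = 0.614). Early ch+ against ctrl stood at −0.13 (95% interval −0.84 to 0.58; limma, adjusted p = 0.895). Without ctrl 374 the last value turned to 0.20 and late against ctrl was 0.65; without 375 they were −0.35 and 0.11. Under rescaling, where the median of all genes stood at 0.63 and 0.71, Pitx1 was called higher in late, at 1.07 against early ch+ (adjusted p = 0.00312) and 1.02 against ctrl (adjusted p = 0.0185).

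**Figure D3:**
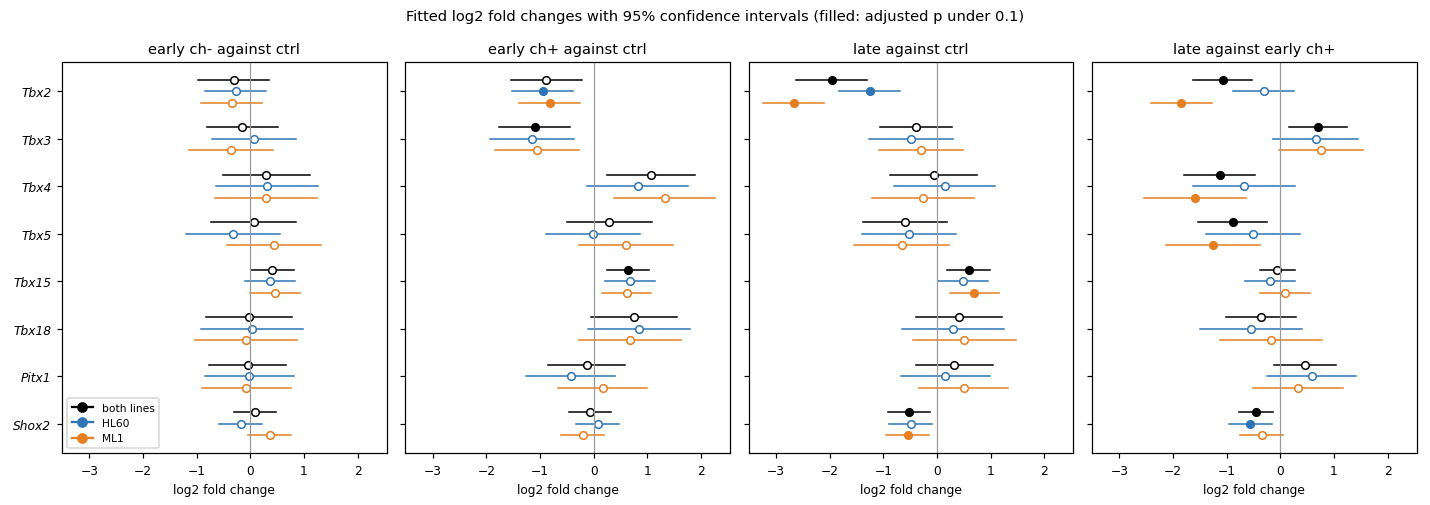
Fitted log2 fold changes (x axis) of the 8 genes with 95% confidence intervals for 4 comparisons, with both lines together, HL60 and ML1 in separate colours; filled points have an adjusted p under 0.1 in limma. Tbx2 in late against ctrl lies furthest from 0, at −1.96 with both lines, −1.25 with HL60 and −2.67 with ML1, and Shox2, at −0.52, turns to 0.17 when libraries are rescaled.

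Counted over the list, with both lines together and calls at an adjusted p under 0.1 in limma, early ch- against ctrl called 0 of 8 members, with 1 at an unadjusted p under 0.05. Of all tested genes 1.92% were called in that comparison, 1.13% higher and 0.786% lower. Early ch+ against ctrl called 2 members, 1 higher (Tbx15) and 1 lower (Tbx3), beside 6.17% of all genes, 3.41% higher and 2.75% lower. Late against ctrl called 3, with 1 higher (Tbx15) and 2 lower (Tbx2 and Shox2), beside 21.5% of all genes, 10.2% higher and 11.4% lower. These 3 comparisons share the 3 ctrl libraries, and the last 2 counts were 0 and 1 without ctrl 374, 1 and 2 without ctrl 373, and 1 and 3 without ctrl 375. The median over members was 0.02, 0.11 and −0.23, against 0.01, 0.01 and 0.02 over all tested genes.

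Early ch+ against early ch- called 1 member, Tbx3, lower, and 0 higher (limma; 4 with an unadjusted p under 0.05), beside 6.26% of all genes, 3.58% higher and 2.68% lower. Late against early ch+ called 5 members, 1 higher (Tbx3) and 4 lower (Tbx2, Tbx4, Tbx5 and Shox2), beside 19.7% of all genes, 8.79% higher and 10.9% lower. The median over members there was −0.41, against 0.02 over all genes. The count of 5 was 3 without ML1 late 582 or 583, HL60 early ch+ 525 or ML1 early ch+ 541. This count, and the one for ML1 alone, hold Tbx4, which passed the filter only through early ch+.

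With HL60 alone, early ch- against ctrl called 0 members (limma; 0 with an unadjusted p under 0.05) beside 1.57% of all genes. HL60 early ch+ against ctrl called 1 member (Tbx2) beside 5.33%, late against ctrl 1 (Tbx2) beside 13.7%, early ch+ against early ch- 1 (Tbx3) beside 3.92% and late against early ch+ 1 (Shox2) beside 10.2%. With ML1 alone, early ch- against ctrl called 0 members (limma; 0 with an unadjusted p under 0.05) beside 2.34%. ML1 early ch+ against ctrl called 1 member (Tbx2) beside 6.69%, late against ctrl 3 (Tbx2, Tbx15 and Shox2) beside 22%, and late against early ch+ 3 (Tbx2, Tbx4 and Tbx5) beside 16.9%. ML1 early ch+ against early ch- called 0 (limma; 2 with an unadjusted p under 0.05) beside 4.25%.

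The direct comparison of the lines called 0 members in early ch- (limma; 1 with an unadjusted p under 0.05) beside 0.0539% of all genes, and 0 in early ch+ (limma; 0 with an unadjusted p under 0.05) beside 0.0154%. In late it called 1, Tbx2, beside 4.09%. For Tbx4 and Tbx5, called in late against early ch+ with ML1 and not with HL60, a difference between the lines in that change was not tested.

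Over the 21 libraries the 8 members did not follow a shared course. The highest Pearson correlation between any 2 members was 0.570, for Tbx2 with Shox2, and the lowest −0.414, for Tbx3 with Tbx5 (n = 21, libraries in 7 groups). Tbx2 was most like Pth1r (0.955), the parathyroid hormone receptor, then Cadm1 (0.954) and Kctd12b (0.950). Tbx3 was most like Sox10 (0.874), Itga8 (0.846) and Myl9 (0.806), a glial, an integrin and a myosin gene. Tbx15 was most like Grem1 (0.786), a BMP antagonist, then Yars2 (0.759) and Angpt1 (0.758).

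Shox2 was most like Hspa4l (0.877), Ccdc116 (0.782) and Ica1 (0.776). For Pitx1 the nearest genes were Tln1 (0.857), Cstb (0.768) and Cse1l (0.734). For the scarce Tbx4 they were Cpq (0.769), Slc14a1 (0.756) and Lonrf2 (0.737), and for Tbx5 Mterf4 (0.810), Pcyt1a (0.775) and Tmem184c (0.750). Tbx18 was nearest to Psmd10 (0.760), Apba3 (0.726) and Acot9 (0.718). These are the highest of 12976 correlations for each member over the 21 libraries, given as description.

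Several members lie side by side in the GRCm38 genome. Tbx2 (ENSMUSG00000000093, 11:85832551-85841948, plus strand) ends 44473 bases before Tbx4 (ENSMUSG00000000094, 11:85886422-85916097, plus strand) begins. Tbx3 (ENSMUSG00000018604, 5:119670669-119684724, plus strand) ends 147943 bases before Tbx5 (ENSMUSG00000018263, 5:119832668-119885219, plus strand). Tbx2 and Tbx4 were both lower in late against early ch+ (both lines and ML1), while in late against ctrl only Tbx2 was called. For Tbx4 this is description only, since it passed the filter only through early ch+. Tbx3 and Tbx5 were called in opposite directions in late against early ch+, and only Tbx3 was called in early ch+ against early ch-. The other 4 lie apart: Tbx15 (ENSMUSG00000027868, 3:99240381-99354259, plus), Shox2 (ENSMUSG00000027833, 3:66971727-66981771, minus), Tbx18 (ENSMUSG00000032419, 9:87702800-87731260, minus) and Pitx1 (ENSMUSG00000021506, 13:55825051-55836192, minus).

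The noncoding transcript 2610027K06Rik starts 328 bases from Tbx2 on the other strand. With a mean of 3.78, it stood at −0.79 in late against ctrl (limma, adjusted p = 0.0736; lower in 6 of 6 libraries), lost without ctrl 374 (−0.76), ctrl 375 (−0.69), ML1 late 582 (−0.77) or 583 (−0.77), or HL60 late 397 (−0.78) or 398 (−0.78) and, at −0.10, under rescaling. In late against early ch+ it fell by 0.92 (limma, adjusted p = 0.00829), with overlap, and stood at −0.31 under rescaling, not called. Bcas3, which overlaps it on the other strand, stood at −0.55 in late against ctrl (limma, adjusted p = 0.0885), with overlap, and turned to 0.14 under rescaling. Its call was lost without ctrl 374 (−0.36), ctrl 375 (−0.51), ML1 late 583 (−0.48), HL60 late 397 (−0.49) or HL60 late 399 (−0.55), with quantile normalization, with only the groups compared and as the mean of both lines from 7 groups.

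Sequence shared with other transcripts varied by member. Of the 51-base stretches in the exons of each member, 0 matched another member, and Tbx2, Tbx4 and Tbx15 had 0% shared with any annotated gene. Tbx18 shared 18.2%, mostly with the overlapping D030062O11Rik (mean 1.94), Pitx1 6.72% with Gm47071 and others, and Shox2 3.12% with Rsrc1, which it overlaps by 382 bases. Tbx3 shared 0.991% with its antisense transcript Tbx3os1 (mean 2.68) and Tbx5 0.325%. How the authors' counting split such reads was not tested.

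RefSeq promoters (GRCm38.p6) were at hand for 3 of the 8 members, and those of Shox2 and Tbx4 are shown because both genes fell in late against early ch+. Each is the 250 bases before the listed start, 5′ to 3′, with capitals on the match to the TATA-box letters TATAAA, read on either strand. For Shox2 (chr3:66981772-66982021, minus strand, 55.6% GC, within an Rsrc1 intron) the match starts 203 bases before the start. For Tbx4 (chr11:85896515-85896764, plus strand, 58.4% GC, an alternative start inside the gene) the match is the reverse complement, 85 bases before the start.
Shox2: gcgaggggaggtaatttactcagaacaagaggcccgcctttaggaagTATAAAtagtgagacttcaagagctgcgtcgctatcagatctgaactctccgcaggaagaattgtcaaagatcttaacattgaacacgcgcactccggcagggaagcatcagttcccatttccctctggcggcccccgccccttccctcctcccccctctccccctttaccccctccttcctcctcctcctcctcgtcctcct
Tbx4: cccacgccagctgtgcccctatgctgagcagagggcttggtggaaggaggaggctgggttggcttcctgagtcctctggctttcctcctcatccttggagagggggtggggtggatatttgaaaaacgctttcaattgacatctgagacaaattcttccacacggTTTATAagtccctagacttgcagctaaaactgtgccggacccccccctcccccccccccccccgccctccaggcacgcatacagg
Neither holds the T-box half-site letters GGTGTGA or the homeodomain core TAATTA, on either strand, and neither holds CCAAT. Of 32851 mouse promoters of the same length, 12.4% held TATAAA, 3.33% GGTGTGA, 4.84% TAATTA and 33.8% CCAAT, and the median GC content was 52.4%. A match or its absence describes these letters in these windows only.

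Of 11 further genes of the T-box family 7 were in the table, and 1 of these passed the filter. This was Mga, with a mean of 10.38, and it was called in 0 comparisons with both lines together (limma; 0 with an unadjusted p under 0.05). The next highest was Tbx6, with a mean of 3.09. Among partners of Tbx4 and Pitx1 in the hindlimb, Isl1, Hoxc9 and Hoxc10 were tested, with means of 4.09, 5.29 and 7.41, and 0 were called against ctrl (limma; 1 in early ch-, 0 in early ch+ and 0 in late with an unadjusted p under 0.05). Among forelimb genes that go with Tbx5, Hoxc4, Hoxc5 and Hoxc6 were tested, with means of 5.59, 5.44 and 6.35, and 0 were called against ctrl (limma; 0, 1 and 0 with an unadjusted p under 0.05). Of 5 Hox genes tested along the limb axis, 0 were called against ctrl (limma; 0, 1 and 0 with an unadjusted p under 0.05), and Hoxa11 was higher in early ch+ than early ch- by 1.02 (limma, adjusted p = 0.0481), with overlap. Of all tested genes 1.92% were called against ctrl in early ch-, 6.17% in early ch+ and 21.5% in late. Counts of 0 in lists this short say little about these genes.

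Other limb transcription factors, 22 tested, had 4 higher and 4 lower in late against ctrl (median 0.02, as for all genes), where 10.2% of all tested genes were higher and 11.4% lower. By size they were Twist2 at 1.75 (adjusted p = 0.0101), Twist1 at −1.37 (adjusted p = 0.000387), Osr1 at −1.18 (adjusted p = 0.0588), Meis2 at 0.95 (adjusted p = 0.0457), Alx4 at −0.92 (adjusted p = 0.0859) and Prrx1 at 0.90 (adjusted p = 3.04e-06), all from limma. Only Twist1 (below) and Prrx1 (above) separated all 6 late libraries from ctrl. Osr1 lost its call without ctrl 373 (−0.79), ctrl 375 (−1.05), ML1 late 581 (−0.98) or 582 (−1.004), with no filter and with only the groups compared, and Meis2 without ctrl 373 (0.61) or 374 (0.77) and with no filter. Alx4 lost it without ctrl 374 (−0.71), ctrl 375 (−0.66), ML1 late 581 (−0.91) or 582 (−0.69), or HL60 late 397 (−0.92), and with no filter, without the trend, with array weights and with only the groups compared. Under rescaling Osr1 and Alx4 stood at −0.49 and −0.23, not called. In early ch+ against ctrl 1 was higher and 0 lower (limma; 2 with an unadjusted p under 0.05), Prrx1 at 0.36 (adjusted p = 0.0965; higher in 6 of 6 libraries), whose call was lost in 18 of the 21 fits with 1 library left out (0.30 to 0.41), without the trend, with array weights and with only the groups compared. In early ch- 0 were called (limma; 1 with an unadjusted p under 0.05). Of all tested genes 6.17% were called in early ch+ against ctrl and 1.92% in early ch- against ctrl.

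Limb bud signals, which act up and downstream of the members, had 2 higher and 6 lower of 14 tested in late against ctrl (median −0.56), beside the same 10.2% and 11.4% of all genes. Bmp7 was at −2.16 (adjusted p = 8.55e-05), Aldh1a2 at 2.13 (adjusted p = 3.01e-06), Dkk1 at −1.77 (adjusted p = 0.0015), Ptch1 at −1.30 (adjusted p = 2.44e-05) and Grem1 at 1.18 (adjusted p = 0.000521), all from limma with no overlap of late and ctrl. Gli1 was at −1.27 (limma, adjusted p = 0.0318) with overlap, and lost its call without ctrl 373 (−1.17) or 375 (−0.97) and, at −0.58, under rescaling. Early ch+ against ctrl had 2 higher, Grem1 at 1.24 (adjusted p = 0.00124) and Aldh1a2 at 1.07 (adjusted p = 0.0287), and 1 lower, Ptch1 at −1.52 (adjusted p = 1.48e-05), in limma; Aldh1a2 overlapped ctrl and was not called without ctrl 374 (0.98) or 375 (0.75) or with no filter. In early ch- 1 was higher and 0 lower (limma; 1 with an unadjusted p under 0.05), Grem1 at 0.88 (adjusted p = 0.0588), with overlap. Of all tested genes 6.17% were called in early ch+ against ctrl and 1.92% in early ch- against ctrl.

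Known targets and partners of the T-box repressors, 7 tested, had 1 higher and 2 lower in late against ctrl (median −0.20), where 21.5% of all genes were called. Snai2 was at 1.15 (limma, adjusted p = 3.64e-06; higher in 6 of 6 libraries), Gja1, a connexin gene repressed by Tbx2 and Tbx3 in the heart, at −0.67 (limma, adjusted p = 0.00191; lower in 6 of 6) and Runx2 at −0.51 (limma, adjusted p = 0.012; lower in 6 of 6). Gja1 and Runx2 turned to 0.02 and 0.19 under rescaling, and Runx2 is also on the osteoblast list. The cell-cycle inhibitor Cdkn1a, another target of Tbx2, had a mean of 11.53 and stood at −0.31 in late against ctrl (limma, adjusted p = 0.304). In early ch+ against ctrl 1 was higher and 0 lower (limma; 2 with an unadjusted p under 0.05), Snai2 at 0.55 (adjusted p = 0.044), with overlap, not called without ctrl 374 (0.48) or 375 (0.49), with no filter or without the trend. In early ch- 0 were called (limma; 0 with an unadjusted p under 0.05). Of all tested genes 6.17% were called in early ch+ against ctrl and 1.92% in early ch- against ctrl.

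Other cells the sort could hold were followed by their markers. Joint and tendon genes (5 tested, Prg4 highest with a mean of 15.31) had 1 higher and 3 lower in late against ctrl, and 1 higher and 2 lower in late against early ch+ and in early ch+ against early ch-. Between the lines in late 3 were higher and 0 lower with HL60 (limma; 4 with an unadjusted p under 0.05). Their sums ran from 80310 to 149957 in ctrl, from 16471 to 30510 in early ch-, from 201222 to 469563 in early ch+, from 15110 to 33074 in HL60 late and from 3932 to 4634 in ML1 late. Prg4 makes up most of the early ch+ sum, at a mean of 18.18 there beside 10.48 for Thbs4 and 9.67 for Fmod. It was 4.09 higher in early ch+ than in early ch- (limma, adjusted p = 1.94e-08), where Cilp and Fmod were lower.

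Fibroblast genes (7 tested, Pdgfra highest at 11.66) had 0 higher and 3 lower in late against ctrl (limma; 3 with an unadjusted p under 0.05) and 0 higher and 5 lower in late against early ch+ (limma; 5 with an unadjusted p under 0.05). Their sums ran from 4104 to 5306 in ctrl, from 3858 to 4761 in early ch-, from 5140 to 7101 in early ch+, from 3719 to 4090 in HL60 late and from 2614 to 2946 in ML1 late. Endothelial genes (6 tested, Cdh5 highest at 6.40) had 0 higher and 0 lower in late against ctrl (limma; 1 with an unadjusted p under 0.05) and 0 higher and 3 lower in late against early ch+ (limma; 4 with an unadjusted p under 0.05). Their sums ran from 240 to 320 in ctrl, from 186 to 382 in early ch-, from 231 to 410 in early ch+ and from 172 to 304 in late. Of all tested genes 10.2% were higher and 11.4% lower in late against ctrl, and 8.79% and 10.9% in late against early ch+. For the joint and tendon counts, the shares were 3.58% and 2.68% in early ch+ against early ch-, and 4.09% between the lines in late. The part of joint and tendon, fibroblast and endothelial cells in the members' values was not tested.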

How the data were processed

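The authors aligned reads to mm10 with STAR 2.5.1b, counted genes with RSEM 1.2.29 and normalized with DESeq2; they deposited regularized log2 values for 21 libraries, −2.33 to 22.44, taken as such although the study's methods name another log base. The read depth of each library is unknown. The labels' extraction text names an endothelial sort, while the cell type field says Nes-low cells. Linear models were fitted on the log2 values with limma 3.58.1 in R 4.3.3, over 4 groups (lines pooled) or 7 (by line), with a mean-variance trend, two-sided, over 12976 genes with a mean of at least 3.32, with Benjamini-Hochberg adjustment and calls under 0.1. The code was tried on known changes added to shuffled residuals of these same libraries. The members and lists were chosen with earlier results of these data known. Genes were named by rule: all members, up to 6 called genes per list with the largest change in late or early ch+ against ctrl, and the 3 genes most correlated with each member; Hoxa11, Mga, Tbx6, Cdkn1a, Cilp, Fmod, Thbs4, the genes at the ends of each marker list, the hindlimb and forelimb genes and the neighbouring genes were added after their values were seen. Summed marker levels are on the linear scale. Alternatives were other filters, scalings, weights, thresholds and leaving out each library. Figures used Python 3.11.15 and matplotlib 3.10.9. Listed genes absent from the table were not analysed here.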

Additional observations from a re-analysis of the deposited data

Results flagged for a closer look

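The difference between the cell lines in late Tbx2 met the rule for effects that differ between groups, by the test of the difference itself: HL60 was 1.41 above ML1 on the log2 scale (95% interval 0.84 to 1.98; limma, adjusted p = 0.00147), with 3 of 3 HL60 libraries above 3 of 3 ML1 libraries. It passed in every setting tried and without any 1 library, from 1.17 to 1.81. Several marker sums also did not overlap between the lines in late. Osteoblast sums were 404472 to 528401 with HL60 and 84246 to 135151 with ML1, and joint and tendon sums 15110 to 33074 and 3932 to 4634. Chondrocyte sums were 22763 to 32290 with HL60 and 5625 to 7992 with ML1, and fibroblast sums 3719 to 4090 and 2614 to 2946. Endothelial and Schwann cell sums were also higher with HL60, while pericyte and skeletal muscle sums were higher with ML1. None of these was tested as a cause. In 24 member groups of 6 libraries, 0 values stood far from the rest.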

How the results depend on the processing

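Of 1169 combinations of settings and the 40 member values with an unadjusted p under 0.05, 1022 kept direction and side of the threshold, 114 lost the call, 29 gained one and 4 reversed, all 4 for Shox2 under rescaling. The Tbx2 calls in late against ctrl (both lines, HL60 and ML1) and in HL60 against ML1 kept their side in every setting tried; where others changed, the cause was not tested, except that a stricter threshold or filter calls or tests fewer genes by construction. No paired analysis was possible because the groups share no replicate numbers, so the labels do not show which early ch+ and early ch- libraries came from 1 marrow. The depth of each library is unknown, so what it limits could not be given by library. Each line and stage had 3 libraries, as did ctrl.

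Members called, with the value as reported second, moved as follows. With no filter: early ch+ against ctrl 0 (2), HL60 0 (1), ML1 0 (1); late against ctrl 2 (3); late against early ch+ 2 (5), HL60 0 (1); HL60 early ch+ against early ch- 0 (1). With a filter at 5: late against early ch+ 3 (5), ML1 1 (3), with Tbx4 and Tbx5 not tested; HL60 early ch+ against ctrl 3 (1). With quantile normalization: early ch+ against ctrl 3 (1) with HL60 and 0 (1) with ML1; late against ctrl 2 (3), ML1 2 (3). Rescaled: early ch+ against early ch- 0 (1), HL60 0 (1); late against early ch+ 3 (5), HL60 2 (1), ML1 5 (3); late against ctrl 4 (3), HL60 2 (1), ML1 4 (3); ML1 early ch+ against ctrl 0 (1). Without the trend: early ch+ against ctrl 1 (2), ML1 0 (1); late against ctrl 2 (3); HL60 early ch+ against early ch- 0 (1) and late against early ch+ 0 (1). With array weights: ML1 early ch+ against ctrl 0 (1). With only the groups compared: early ch+ against ctrl 1 (2), ML1 0 (1); early ch+ against early ch- 2 (1), HL60 0 (1). At an adjusted p under 0.05: early ch+ against ctrl 0 (2), HL60 0 (1), ML1 0 (1); late against ctrl 2 (3); late against early ch+ 3 (5), HL60 0 (1); HL60 early ch+ against early ch- 0 (1). With the mean of both lines from 7 groups: early ch+ against ctrl 3 (2) and against early ch- 2 (1). Leaving out 1 library at a time, the lowest and highest counts were 0 and 1 for early ch- against ctrl (both lines, HL60 and ML1), 0 and 3 for early ch+ against ctrl (0 and 2 with HL60, 0 and 2 with ML1), 1 and 3 for late against ctrl (1 and 3, 2 and 3), 0 and 2 for early ch+ against early ch- (0 and 1, 0 and 2), 3 and 5 for late against early ch+ (0 and 1, 2 and 3), and 0 and 0, 0 and 0, 1 and 1 for HL60 against ML1 in early ch-, early ch+ and late.

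Reversed under rescaling: Shox2 in late against ctrl to 0.17 (HL60 0.081, ML1 0.27) and in late against early ch+ to 0.16 (ML1, from −0.35 to 0.41, called); Gja1, Runx2 and Bcas3 in late against ctrl to 0.023, 0.19 and 0.14. Tbx15 in late against early ch+ turned from −0.05 to 0.56, called. The setting shifts all genes of a comparison by 1 amount, from which these turns follow. It raised all genes called from 2795 to 8323 in late against ctrl and from 2555 to 9055 in late against early ch+, with 93.8% and 93.5% of them higher (47.3% and 44.6% before).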
